A study of Mus musculus with 18 samples.

Results

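Nascent RNA was compared between Lin+ cells, which carried surface antigens of other blood lineages, and S3 cells, the most mature erythroid population sorted, both from mouse fetal liver. The 3 Lin+ libraries and the 3 S3 libraries were chosen by their labels, 6 of the 18 libraries of the series, and every gene of the table was used. Livers of C57BL/6 embryos at e12.5 to e13.5, with no genetic change named, were sorted by flow cytometry. S3 cells were negative for the lineage antibodies and high for both CD71, the transferrin receptor, and Ter119, an erythroid surface antigen, while Lin+ cells were bound by at least some of a panel against CD41, CD45R, CD3e, CD11b and Ly-6G/6C. S0-Low cells, the earliest lineage-negative population (CD71- Ter119-), are set beside both where a level needs a reference. All cells were rested for 6 h in IMDM with serum and then given 500 μM 4-thiouridine (4sU) for 45 min, a uridine analogue that marks newly made RNA so that it can be purified. The libraries therefore report RNA made during the pulse, after a rest outside the liver. Lin+ was a mixture defined by antibodies and not a cell type, and the study depleted Ter119-stained cells before sorting to enrich progenitors. How many embryos went into each library was not stated, so the p-values given here measure the spread between these libraries, which may be partly technical.

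During mid-gestation the fetal liver is the main site of blood formation, and most of its blood cells are erythroid. Late erythroblasts make haemoglobin, haem and the spectrin-based membrane skeleton of the red cell while shutting down most other programmes, under GATA and KLF transcription factors. Neutrophils, monocytes, mast cells, eosinophils and megakaryocytes arise in the same organ under factors such as PU.1 and the C/EBP family. Neutrophil granules are filled in order, with the primary granule proteins made by the earliest precursors and the secondary granule proteins made later.

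Library totals were 28066003 to 39859680 estimated counts in Lin+ and 17978747 to 32762197 in S3. Lin+ libraries held 18226 to 23393 genes with a count, and S3 libraries 11481 to 16991. On log2 counts scaled by effective library size, libraries correlated at 0.908 to 0.944 within Lin+, at 0.847 to 0.889 within S3 and at 0.588 to 0.639 between them. The first principal component over all 18 libraries took 46.6% of the variance and had Lin+ at one end (-261 to -240) and S3 at the other, where S3 replicate 2 (230) stood apart from replicates 1 and 3 (366 and 357) and also held the most genes with a count. Levels below are normalized counts, estimated counts brought to a common effective depth with trimmed mean of M-values (TMM) factors. They are not divided by transcript length and are compared between libraries, never between genes.

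S100a9, a calcium-binding protein of neutrophils and monocytes (chr3:90692630-90695721, GRCm38.p6), had 13526, 18034 and 14734 normalized counts in Lin+ and 0, 7.21 and 0 in S3. Alas2, the erythroid aminolevulinate synthase that starts haem synthesis (chrX:150547417-150570622), had 0, 72.8 and 89.5 in Lin+ and 83124, 114396 and 129810 in S3. For both genes every library of the higher population lay far above every library of the other. As differences on the log2 scale of the fit, S100a9 was 12.32 higher in Lin+ (SE 0.86, edgeR adjusted p = 1e-07) and Alas2 differed by -10.95 (SE 1.12, edgeR adjusted p = 1.3e-06). The labels call the cells of every library primary erythroblasts, which fitted S3 but not the Lin+ libraries, where globin, haem and membrane genes were at the low levels given below.

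**Figure D1:**
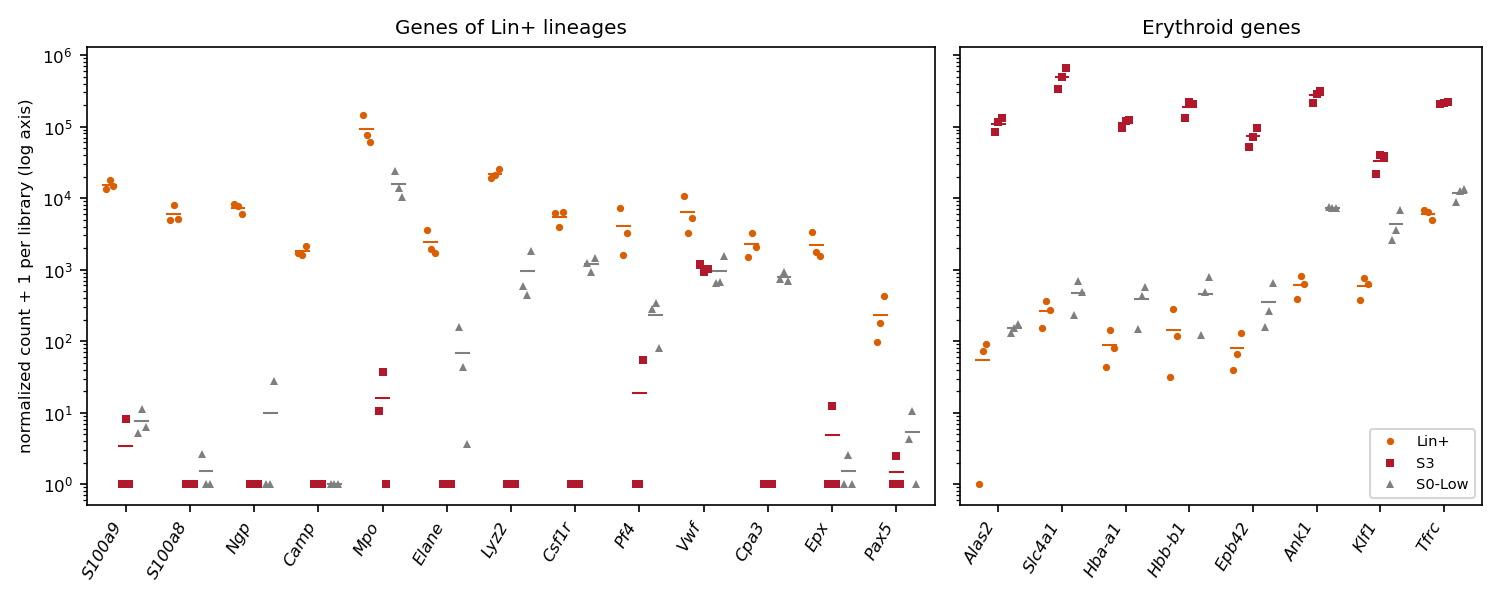
Normalized count plus 1 per library on a log axis for genes of the Lin+ lineages (left) and erythroid genes (right), with Lin+ as circles, S3 as squares, S0-Low as triangles and the group mean as a bar. A point at 1 is a count of 0, and the S3 libraries are at or near 0 for S100a9, S100a8, Ngp, Camp, Elane, Lyz2, Csf1r and Cpa3, while all 3 lie above all Lin+ libraries for the erythroid genes.

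Of 17755 genes tested, 5005 (28.2%) were higher in Lin+ and 2496 (14.1%) were higher in S3 at an adjusted p under 0.05 (edgeR quasi-likelihood test, Benjamini-Hochberg adjustment over all tested genes), and these genes are called below. Without any test, all 3 libraries of one population lay above all 3 of the other for 6539 genes (36.8%) in favour of Lin+ and 3071 (17.3%) in favour of S3. Among the called genes, 4896 and 2339 did not overlap. Many differences were close to on or off: 2014 genes called higher in Lin+ had a count of 0 in all 3 S3 libraries, whereas 56 genes called higher in S3 were at 0 in all 3 Lin+ libraries. By the ratio of means, 3697 genes called higher in Lin+ and 514 called higher in S3 differed by 16-fold or more. In bulk libraries of this kind, fewer cells of a type and less RNA per cell cannot be told apart. Scaling moved the balance: the median log2 difference of all tested genes was 0.69 with TMM factors, 0.89 with relative log expression factors and 1.47 with library totals, and the share of called genes that were higher in Lin+ was 66.7%, 71.6% and 84.2%. When only genes reaching 10 counts throughout the 6 libraries were kept, that share was 50.3%, and the median was 0.11. DESeq2, run without this filtering on the 30157 genes with a count in any library, gave a median of 0.38 over that larger set. In the edgeR fit without S3 replicate 2 the median was 1.37.

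Antigens of the sort panel were checked in turn. Ptprc, which encodes CD45 and its B220 form, had 7165, 9115 and 14287 normalized counts in Lin+ and 0 in every S3 library, at least 1787-fold higher (edgeR adjusted p = 5.4e-07). Where S3 was at 0 in every library, folds here are lower bounds against a floor of 3 counts per library, 5.7 normalized counts on average. Ly6c2, a chain of the Ly-6C antigen, had 306, 521 and 508 against 0, at least 78-fold higher (edgeR adjusted p = 0.0014). Itga2b, which encodes CD41, had 14760, 6243 and 5853 in Lin+ and 586, 2487 and 1153 in S3, a log2 difference of 2.67 (SE 0.62, edgeR adjusted p = 0.0027), so S3 was not empty of it. Ly6g had 45.2, 3.68 and 13.9 normalized counts in Lin+ and 0 in S3 and was too low to be tested, and Cd3e and Ly6c1 each had a count in Lin+ replicate 3 alone. Itgam, the CD11b gene, was listed at 0 in every library of the series, as were Irf8 and Myd88, which leukocytes use widely, so that a value of 0 for it is not evidence of absence. Tfrc, the gene of CD71, ran the other way with 6903, 6359 and 4972 in Lin+ and 203926, 212041 and 222444 in S3 (log2 difference -5.13, SE 0.33, edgeR adjusted p = 2.6e-08).

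Neutrophil granule genes were far higher in Lin+. All 8 primary granule genes were tested and called higher in Lin+, with a median log2 difference of 13.00, as were 12 of 13 secondary granule and S100 genes, the thirteenth being too low to test, with a median of 11.72. Both medians stand beside 0.69 over all tested genes, and with genes at 0 in S3 set to their lower bound they were 8.87 and 8.52. Mpo, the myeloperoxidase of primary granules, had 144646, 75770 and 60671 normalized counts in Lin+ and 9.69, 36.0 and 0 in S3. Its log2 difference of 12.49 (SE 1.40, edgeR adjusted p = 3.5e-06) went with a ratio of means of 6146. The serine proteases of the same granule behaved alike. Elane, neutrophil elastase, had 3546, 1958 and 1714 normalized counts against 0 in S3 (at least 422-fold), and Ctsg, cathepsin G, had 3282, 2534 and 3110 against 0 (at least 522-fold). Serpinb1a, an inhibitor of these proteases, was at least 710-fold higher in Lin+. Among later genes, S100a8, the partner of S100a9, had 4963, 7945 and 5159 normalized counts against 0 (at least 1056-fold), Ngp, a neutrophil granule protein, was at least 1294-fold higher, and Camp, the cathelicidin precursor, at least 320-fold higher. Padi4, which converts arginine in histones to citrulline, was at least 151-fold higher.

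The promoters of a few of these genes are shown so that the reader can set the regulatory sequence beside the values. They are the 250 bases before an annotated start in the RefSeq table for GRCm38.p6, given 5′ to 3′ on the strand of the gene. Capitals mark matches, on either strand, to AGATAA, the core site of the GATA factor family. Also marked are matches to GAGGAAGT, bound by PU.1, to TTGCNNAA, bound by C/EBP factors, and to CCNCNCCC, bound by KLF factors, where overlapping matches run together. Elane (chr10:79886062-79886311) and Prtn3 (chr10:79879417-79879666), which encodes proteinase 3, are neighbours on the plus strand, S100a9 (chr3:90695722-90695971) is on the minus strand, and Alas2 (chrX:150547167-150547416) on the plus strand represents the erythroid side.
Elane: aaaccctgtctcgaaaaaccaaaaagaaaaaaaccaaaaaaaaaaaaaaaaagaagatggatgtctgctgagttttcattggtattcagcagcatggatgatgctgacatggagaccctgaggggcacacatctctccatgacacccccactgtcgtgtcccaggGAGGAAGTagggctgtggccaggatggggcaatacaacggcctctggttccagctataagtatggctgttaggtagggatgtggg
Prtn3: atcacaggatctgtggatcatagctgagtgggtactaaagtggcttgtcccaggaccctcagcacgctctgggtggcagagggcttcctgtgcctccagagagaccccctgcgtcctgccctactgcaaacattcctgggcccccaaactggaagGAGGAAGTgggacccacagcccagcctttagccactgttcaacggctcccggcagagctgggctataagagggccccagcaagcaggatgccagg
S100a9: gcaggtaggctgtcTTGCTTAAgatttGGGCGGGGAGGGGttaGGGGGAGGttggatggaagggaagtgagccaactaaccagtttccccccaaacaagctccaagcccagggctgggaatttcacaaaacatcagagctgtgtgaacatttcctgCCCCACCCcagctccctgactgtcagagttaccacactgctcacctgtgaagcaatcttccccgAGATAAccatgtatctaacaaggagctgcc
Alas2: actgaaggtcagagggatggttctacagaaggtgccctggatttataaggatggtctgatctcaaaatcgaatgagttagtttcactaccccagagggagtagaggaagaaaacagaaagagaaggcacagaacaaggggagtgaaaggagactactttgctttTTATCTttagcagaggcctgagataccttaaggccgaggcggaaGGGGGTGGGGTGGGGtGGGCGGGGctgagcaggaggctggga
Elane and Prtn3 each held GAGGAAGT, with its first base 85 and 95 bases before the start. The window of Alas2 held AGATAA on the minus strand with its match beginning 86 bases before the start, and 4 KLF type matches between 42 and 19 bases before it. S100a9 held the C/EBP core 236 bases before the start and also an AGATAA 30 bases before it, together with 4 KLF type matches. Over a window of 250 bases before to 50 after each start, GAGGAAGT occurred in 5.5% of 3474 genes called higher in Lin+ with a promoter in the table, in 2.21% of 1854 called higher in S3 and in 3.73% of 11299 tested genes. TTGCNNAA occurred in 11.9%, 8.41% and 10.2% of the same groups, AGATAA in 8.98%, 9.06% and 8.42%, and CCNCNCCC in 73.2%, 74.4% and 70.9%. Of all 32851 promoters in the table, 3.2%, 10.8%, 11.2% and 49.5% held these motifs in the same order. No test was run on these shares, and a match is only a match of letters.

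Macrophage and monocyte genes followed the same direction, with all 16 tested of 19 called higher in Lin+ (median log2 difference 11.02, or 7.80 with genes at 0 in S3 set to their bound). Lyz2, the lysozyme of these cells and of neutrophils, had 19342, 21365 and 25256 normalized counts against 0 in S3, at least 3856-fold higher (edgeR adjusted p = 9.6e-07). Csf1r, the receptor for macrophage colony-stimulating factor, had 6146, 4007 and 6364 against 0 (at least 966-fold), and the chemokine receptor Ccr2 and cathepsin S (Ctss) were at least 624-fold and 279-fold higher. All 5 tested eosinophil genes were called higher in Lin+. Epx, eosinophil peroxidase, had 3320, 1738 and 1532 normalized counts in Lin+ and 0, 11.5 and 0 in S3 (log2 difference 8.97, SE 1.82, edgeR adjusted p = 0.0011), and Prg3, a granule protein, and Ear2, a ribonuclease, were at least 169-fold and 192-fold higher. So were all 7 tested of 12 mast cell and basophil genes, with carboxypeptidase Cpa3 at least 400-fold higher, the Fc receptor chain Ms4a2 at least 233-fold and Mcpt8, a basophil protease, at least 27.6-fold. Hdc, which makes histamine, had 8663, 11494 and 5318 normalized counts in Lin+ and a count in S3 replicate 1 alone (2.42), a ratio of means of 10518 with a 95% counting interval of 1888 to 415436.

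Megakaryocyte and platelet genes were mostly called as well. Of 16 genes 14 were called higher in Lin+ (median log2 difference 7.10, or 5.72 with genes at 0 in S3 set to their bound), and Gp9 and Tubb1 were not. The count was 10 without Lin+ replicate 1, and the median was 8.83 without S3 replicate 2. Gp5, a platelet glycoprotein, had 1833, 540 and 806 normalized counts in Lin+ against 0 in S3 (at least 186-fold). Vwf, the von Willebrand factor gene, chosen after its values were seen, had 10856, 3290 and 5269 in Lin+ and 1189, 913 and 1033 in S3 (log2 difference 2.63, SE 0.75, edgeR adjusted p = 0.01), and its adjusted p was 0.051 without Lin+ replicate 1. Tubb1, the platelet tubulin, overlapped, at 1418, 517 and 1284 against 332, 663 and 1296 (log2 difference 0.49, 95% interval -1.59 to 2.57, edgeR adjusted p = 0.72).

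Lymphoid genes were the next group. Of 16 B, T and NK cell genes 11 were tested and 8 were called higher in Lin+ (median log2 difference 7.62, or 3.61 with genes at 0 in S3 set to their bound). The 3 not called were the T cell receptor chains Cd3d (edgeR adjusted p = 0.22) and Cd3g (0.072) and the B cell receptor chain Cd79a (0.37), and Cd3d had 2.15, 5.15 and 11.3 in Lin+ and 235, 0 and 0 in S3. Pax5, the B cell commitment factor, had 94.8, 176 and 423 normalized counts in Lin+ and 0, 1.44 and 0 in S3 (ratio of means 482, 95% counting interval 86.4 to 19023, edgeR adjusted p = 0.0037), Ebf1, another B cell factor, had 742, 558 and 1144 against 0, 2.88 and 18.4 (edgeR adjusted p = 0.0027), and Cd79b, a B cell receptor chain, was at least 91.4-fold higher. Of 7 dendritic cell genes 5 were tested, 4 were called higher in Lin+ and Zbtb46 was called higher in S3. Siglech and Clec9a, surface lectins of plasmacytoid and conventional dendritic cells, were at least 68.3-fold and 61.3-fold higher in Lin+. Zbtb46, a zinc finger factor of conventional dendritic cells named here after its value was seen, had 382, 395 and 261 in Lin+ and 2124, 4553 and 1894 in S3 (log2 difference -3.05, SE 0.48, edgeR adjusted p = 9e-05).

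Summed levels of the lineage lists differed among the Lin+ libraries. Megakaryocyte genes summed to 101103 normalized counts in Lin+ replicate 1 against 52769 and 68757 in replicates 2 and 3, and 13 of the 16 were highest in replicate 1. The sum of primary granule genes was also highest there, at 167364 against 98327 and 84228, but most of it was Mpo, and only 4 of the 8 genes were highest in replicate 1. Of 10 mast cell and basophil genes with a Lin+ count, 9 were highest in replicate 2 (sums of 27453, 43720 and 34397), and of 14 such B, T and NK cell genes 12 were highest in replicate 3 (1802, 2556 and 4077). These shifts are within 1 population and were not tested.

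**Figure D2:**
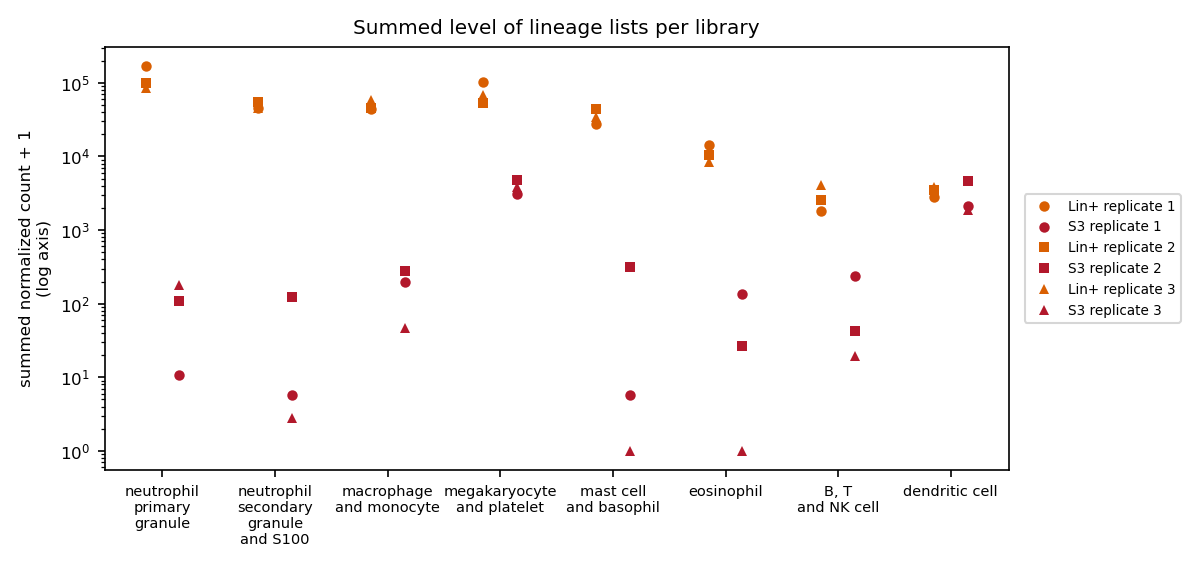
Summed normalized count plus 1 of the members of 8 lineage lists in each Lin+ and S3 library, on a log axis, with a marker shape per replicate number. The Lin+ libraries lie above the S3 libraries for every list except dendritic cell genes, where S3 replicate 2 (4577.5) exceeds all 3 Lin+ libraries, and replicate 1 leads the megakaryocyte list.

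Genes of other liver cells were low in both populations or higher in Lin+. Of 9 hepatocyte genes 6 were tested and 4 called higher in Lin+. That count was 1 without S3 replicate 3, 2 without Lin+ replicate 1, S3 replicate 1 or S3 replicate 2, and 2 with a fold of 2 required. The list summed to 314 to 469 normalized counts in Lin+ and 0 to 12.1 in S3, and Alb had 43.1, 0 and 4.64 in Lin+ and 0 in S3. Ttr was listed at 0 in every library, which is no more evidence of absence than it is for Itgam. Of 8 endothelial genes 7 were tested and 6 called higher in Lin+, with sums of 5824 to 10190 in Lin+ and 258 to 414 in S3. Most of the endothelial sum in Lin+ was Pecam1, an adhesion molecule that leukocytes and platelets also carry, at 3876, 4335 and 7048 in Lin+ and 383, 80.7 and 82.7 in S3 (log2 difference 4.81, SE 0.99, edgeR adjusted p = 0.00097), while the angiopoietin receptor Tek had 659, 431 and 1181 against 4.84, 2.88 and 5.52 (log2 difference 7.41, edgeR adjusted p = 3e-05). Their part in the leukocyte differences was not tested.

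Leukocyte transcription factors included some at or near 0 in S3 and some made in both populations. Of 13 tested, 11 were called higher in Lin+ (median log2 difference 11.04, or 6.80 with genes at 0 in S3 set to their bound). Cebpa, the C/EBP factor needed for granulocyte formation, had 2863, 3402 and 3055 normalized counts in Lin+ and 0 in S3 (at least 545-fold), Cebpe, which acts in late granulocytes, had 1555, 2290 and 2200 against 0 (at least 353-fold), and Maf and Klf4 were at least 111-fold and 125-fold higher. Fli1, an ETS factor of megakaryocytes and leukocytes, had 16245, 16314 and 17171 against 0, 20.2 and 0 (log2 difference 11.04, SE 1.38, edgeR adjusted p = 9.7e-06). Cebpb was the exception that stood out, and it was chosen after its values were seen. It had 8693, 12585 and 8038 normalized counts in Lin+ and 8414, 12002 and 7582 in S3, which overlapped fully, with a log2 difference of 0.07 (95% interval -0.92 to 1.06, edgeR adjusted p = 0.92). Spi1, the gene of PU.1, Runx1 and Ikzf1, named after their values were seen, were also made in S3. Spi1 had 6329, 8418 and 8478 in Lin+ and 434, 44.7 and 290 in S3 (log2 difference 4.92, SE 1.09, edgeR adjusted p = 0.0018), and Runx1, 46803 to 53122 in Lin+ and 14292 to 20583 in S3, differed by 1.45 (SE 0.43, edgeR adjusted p = 0.012, or 0.13 with a fold of 2 required). Ikzf1 differed by 0.79 (SE 0.27, edgeR adjusted p = 0.026, or 0.71 with a fold of 2 required), a call that was lost without Lin+ replicate 2 (edgeR adjusted p = 0.067), Lin+ replicate 3 (0.11) or S3 replicate 3 (0.078).

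The signalling and cytoskeletal genes of leukocytes were called higher in Lin+ for 24 of 25 (median log2 difference 8.44) and Btk not called. Its members took 0.787 to 0.866% of all counts in Lin+ and 0.0151 to 0.038% in S3. Coro1a, an actin-binding coronin of blood cells, had 18620, 15357 and 12794 normalized counts in Lin+ and 0 in S3 (at least 2734-fold), and the integrin chain Itgb2 and the adaptor Lcp2 were at least 1270-fold and 1118-fold higher. Of 6 NADPH oxidase genes, which make the phagocyte respiratory burst, 5 were called higher in Lin+. Cyba and Ncf1 were at least 496-fold and 1705-fold higher, and Cybb, the catalytic chain, had 8132, 4973 and 6857 against 21.8, 0 and 0 (log2 difference 10.02, SE 1.60, edgeR adjusted p = 0.0001). Ncf4, a regulatory chain chosen after its values were seen, was made in both populations, at 3106, 2719 and 2460 in Lin+ and 1446, 1341 and 1208 in S3, without overlap, and did not pass (log2 difference 1.05, 95% interval -0.39 to 2.49, edgeR adjusted p = 0.23). It passed with only the 6 libraries fitted (edgeR adjusted p = 0.0086) and with library totals (0.04).

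Innate sensing genes were called higher in Lin+ for 12 of 13 tested, with Tlr2, Tlr7 and the inflammasome adaptor Pycard at least 290-fold, 212-fold and 212-fold higher and Clec4e not called. Cytokine and chemokine genes were called higher for 12 of 14 tested, and Ccl9, Ccl3, Tnf and Ccl4 were at least 552-fold, 231-fold, 126-fold and 75.8-fold higher. Il6 and Osm were not called. Among 13 receptors for myeloid cytokines 11 were called higher in Lin+. Csf3r, the receptor for granulocyte colony-stimulating factor, had 5047, 3956 and 4931 against 0, 2.88 and 0 (ratio of means 4832, 95% counting interval 1338 to 39902, edgeR adjusted p = 4.8e-06), and Il1r2, a decoy receptor, was at least 173-fold higher. All 9 genes of antigen presentation were called higher (8 with a fold of 2 required), with log2 differences from 1.70 upward. They included Tap1, a peptide transporter with 1749, 1868 and 2127 against 2.42, 0 and 0 (ratio of means 2372, 95% counting interval 426 to 93681), and the class II chain H2-Ab1, at least 30.6-fold higher but at only 99.2 to 292 normalized counts.

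Lysosomal genes lay on both sides. Of 15, 6 were called higher in Lin+, 2 higher in S3 and 7 were not called (median log2 difference 1.35, with 12 called higher in Lin+ when library totals were used), beside 28.2% and 14.1% of all tested genes. Cathepsin H (Ctsh) was at least 185-fold higher in Lin+, and Hexa, a hexosaminidase chain, had 4109, 2685 and 3092 against 0, 5.77 and 71.7. The reverse held for Ctsb, cathepsin B, named after its values were seen, with 5992, 3077 and 4148 in Lin+ and 29855, 35138 and 41198 in S3 (log2 difference -3.01, SE 0.48, edgeR adjusted p = 9.7e-05). Lgmn, an asparaginyl protease chosen in the same way, had 666, 308 and 809 in Lin+ and 1666, 4014 and 3879 in S3 (log2 difference -2.42, SE 0.70, edgeR adjusted p = 0.01), a call lost with library totals (edgeR adjusted p = 0.07) and without Lin+ replicate 2 (0.051).

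**Figure D3:**
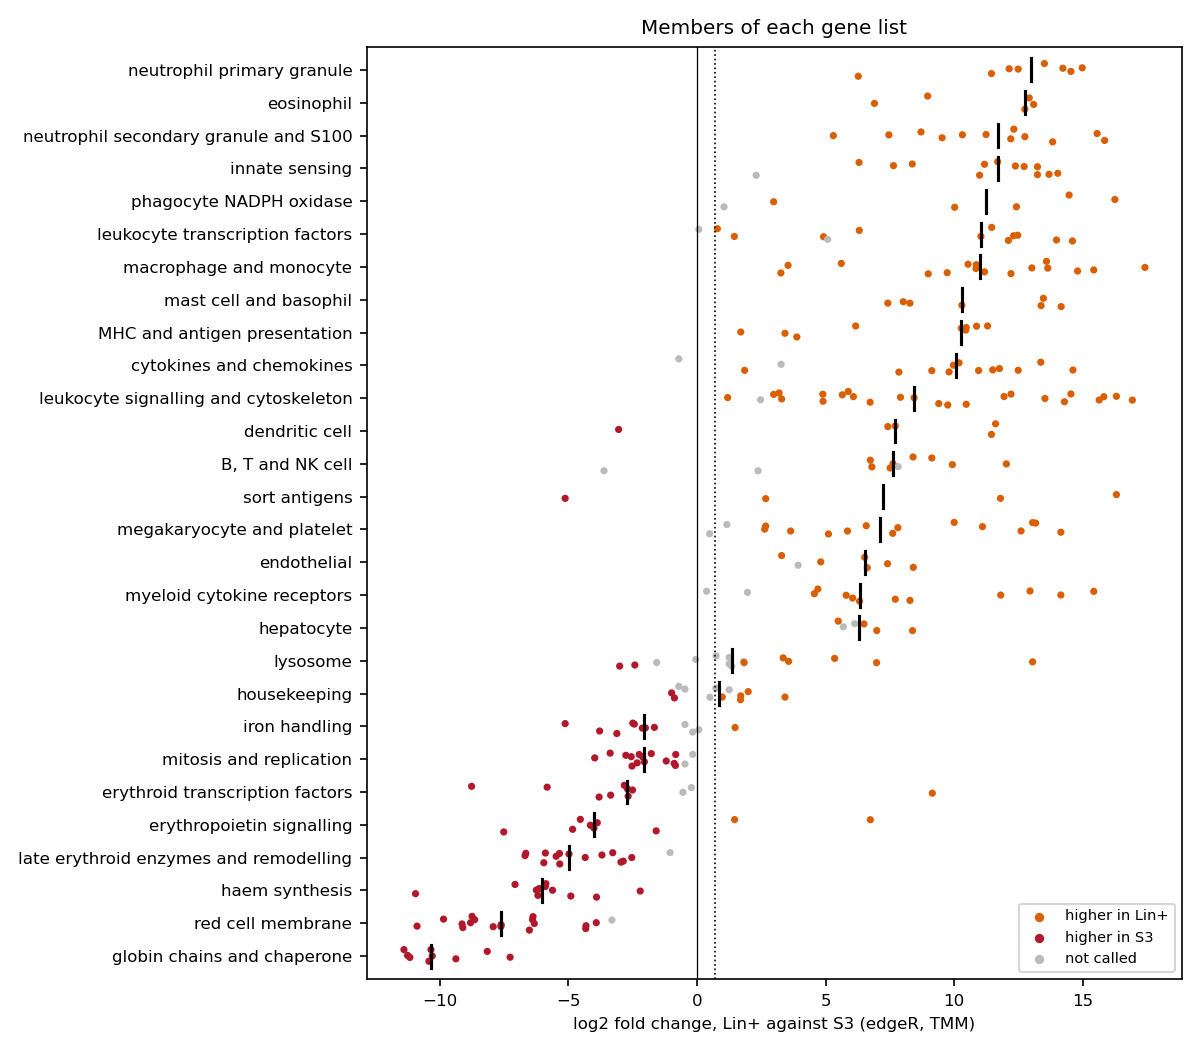
Log2 difference of Lin+ against S3 (x axis, edgeR fit with TMM factors) for each tested member of 28 gene lists, ordered by the list's median (black bar), with genes called higher in Lin+ in orange, higher in S3 in red and not called in grey. The dotted line is the median of all tested genes (0.69), the leukocyte lists lie to its right, and the globin list has the lowest median (-10.35).

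Among the erythroid lists the globins had the median furthest toward S3, though some single genes outside this list lay further. All 9 globin genes with an identifier were called higher in S3 (median log2 difference -10.35), and they took 0.787 to 1.04% of all counts in S3 against 0.000406 to 0.00248% in Lin+. Hba-a1, an adult alpha globin gene, had 42.0, 144 and 79.6 normalized counts in Lin+ and 94944, 119071 and 122897 in S3 (log2 difference -10.30, SE 1.00, edgeR adjusted p = 8.7e-07). Hbb-b1, an adult beta globin, had 30.2, 279 and 119 against 133746, 218907 and 208599 (log2 difference -10.35, SE 1.15, edgeR adjusted p = 3.1e-06). Embryonic Hba-x was also made, at 1439, 179 and 1030 in S3 with a count in Lin+ replicate 2 alone. Near-identical pairs such as Hba-a1 and Hba-a2, Hbq1a and Hbq1b, or Hbb-b1 and Hbb-b2 share reads, so the split within a pair is uncertain.

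The 12 haem synthesis genes were all called higher in S3 (median log2 difference -6.02). Slc25a37, which carries iron into mitochondria, had 1125, 1170 and 1383 in Lin+ and 137238, 166739 and 194120 in S3 (log2 difference -7.08, SE 0.62, edgeR adjusted p = 3.3e-07). Abcb10, its mitochondrial partner, differed by -6.25, and Alad, the second enzyme of the pathway, by -6.19. Of 12 iron handling genes 8 were called higher in S3, 3 were not called and Fbxl5, which targets iron regulatory protein for degradation, was higher in Lin+ (1.48, SE 0.35, edgeR adjusted p = 0.0028). The call of Fbxl5 was lost with a fold of 2 required. Beside Tfrc, Tfr2 differed by -3.79, the iron transporter Slc11a2 by -3.12 and the iron exporter Slc40a1 by -2.50 on the log2 scale.

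Red cell membrane genes took the largest share of S3 counts of any list, 3.89 to 5.04% against 0.0846 to 0.096% in Lin+. Of 18, 17 were called higher in S3 (median log2 difference -7.62), and for all 18 the libraries did not overlap. Slc4a1, the anion exchanger of the red cell, had 154, 362 and 269 normalized counts in Lin+ and 338418, 492640 and 662689 in S3 (log2 difference -10.89, SE 0.92, edgeR adjusted p = 2.3e-07). Epb42, which links it to the skeleton, differed by -9.86 (SE 1.00) and Rhd, a Rhesus protein, by -9.11 (SE 1.18). Aqp1, the water channel, was not called, with 314, 138 and 336 in Lin+ and 644, 647 and 6547 in S3 (log2 difference -3.31, edgeR adjusted p = 0.075). It was called with the replicate block (edgeR adjusted p = 0.0062), with no filter (0.0033) and with only the 6 libraries fitted (0.048).

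Erythroid transcription factors had a smaller median difference than the membrane and haem lists, which was not tested. Of 11 tested, 8 were called higher in S3 (median log2 difference -2.71), Ldb1 and Cbfa2t3 were not called, and Ikzf3, a factor best known from lymphocytes, was higher in Lin+. Klf1, the erythroid KLF factor, had 370, 752 and 630 in Lin+ and 21474, 39444 and 39069 in S3 (log2 difference -5.83, SE 0.60, edgeR adjusted p = 1.5e-06), Sox6 differed by -8.77 (SE 0.97) and Foxo3 by -3.81 (SE 0.48). Of 9 genes of erythropoietin signalling 7 were called higher in S3, among them the receptor Epor, with 690, 546 and 472 against 8862, 17174 and 23029 (log2 difference -4.84, SE 0.58, edgeR adjusted p = 6.9e-06), and Erfe, the hormone erythroferrone, which differed by -7.52. That count was 5 without Lin+ replicate 1 or Lin+ replicate 2, and 6 with library totals or a fold of 2 required. Jak2, also in that count and named after its values were seen, lost its call under several alternatives. Among them were library totals (edgeR adjusted p = 0.26) and leaving out S3 replicate 3 (0.17). The STAT genes of this pathway were higher in Lin+. Stat5a had 2241, 1738 and 2256 in Lin+ and 0, 34.6 and 20.2 in S3 (log2 difference 6.74, SE 0.68, edgeR adjusted p = 1.2e-06), and Stat5b, chosen after its values were seen, differed by 1.46 (SE 0.39, edgeR adjusted p = 0.007, or 0.11 with a fold of 2 required).

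Late erythroid enzymes and remodelling genes were called higher in S3 for 14 of 15 tested (median log2 difference -4.98). Pklr, the red cell pyruvate kinase, differed by -6.69, Ube2o, a ubiquitin ligase that clears ribosomes in reticulocytes, by -5.96, and Xpo7, a nuclear exporter needed late in erythroid maturation, by -5.90, with 3288, 3518 and 3293 in Lin+ and 118566, 200712 and 284434 in S3. Mitosis and replication genes were called higher in S3 for 14 of 16 (median log2 difference -2.08), or for 10 with library totals (-1.25). They took 1.55, 1.7 and 3.19% of counts in the S3 libraries and 0.521 to 0.587% in Lin+, and Mki67, a proliferation marker, had 392641, 461621 and 1216568 in S3 against 54116, 34213 and 43285 in Lin+, so that S3 replicate 3 was well above its peers. Mcm3 and Mcm6 of the replicative helicase, named after their values were seen, did not pass (log2 difference -0.17 and -0.47, edgeR adjusted p = 0.63 and 0.2, or 0.62 and 0.33 on the log2 scale with library totals). Of 12 housekeeping genes 5 were called higher in Lin+, 2 higher in S3 and 5 were not called (median log2 difference 0.86, beside 0.69 over all genes). These shares stand beside 28.2% and 14.1% of all tested genes. The counts were 7 and 0 with library totals, 2 and 1 without Lin+ replicate 1, 3 and 2 without S3 replicate 1, 2 and 2 without S3 replicate 3, and 1 and 0 with a fold of 2 required. Without Lin+ replicate 2, Lin+ replicate 3 or S3 replicate 2 they were 4 and 1, 6 and 0, and 5 and 1.

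Ranked without regard to lists, by the ratio of means with a lower mean under the floor of 3 counts per library raised to that floor, the 12 genes furthest toward Lin+ were Mpo, Lyz2, Plcg2, Coro1a, Rin3, S100a9, F630028O10Rik, Atp8b4, Wdfy4, Fli1, Olfm4 and Celf2. Plcg2, a phospholipase of immune receptors, had 21540, 15380 and 14813 normalized counts in Lin+ and 0, 1.44 and 0 in S3 (ratio of means 35883, 95% counting interval 6440 to 1417301, edgeR adjusted p = 3e-08). Olfm4, a neutrophil granule glycoprotein, had 11656, 14177 and 14687 against 2.42, 0 and 0 (ratio of means 16729, 95% counting interval 3003 to 660771), and Rin3, a regulator of endosomal Rab proteins, was at least 2709-fold higher. The 12 genes furthest toward S3 were Ypel4, Sowaha, Gm867, Trim10, Hba-a2, Alas2, Slc4a1, Hbq1b, Gfap, Hbb-b1, Hba-a1 and Slfn14. Several of these are not textbook erythroid genes. Ypel4, a member of the yippee family, had 0, 0.735 and 16.6 in Lin+ and 13205, 35332 and 45391 in S3 (log2 difference -12.26, SE 1.71, edgeR adjusted p = 2.9e-05). Trim10, a RING finger protein described in erythroid cells, had 12.9, 30.1 and 21.9 against 34658, 56783 and 96632 (log2 difference -11.48, SE 1.06, edgeR adjusted p = 5.4e-07). Gfap, the intermediate filament gene of astrocytes, had 0, 6.62 and 7.30 in Lin+ and 4009, 7847 and 8951 in S3 (log2 difference -10.43, SE 1.26, edgeR adjusted p = 7e-06).

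Some related genes lay on opposite sides. The sets below were assembled after values were seen, so the oppositions in them were chosen, and how common they are was not tested. For aminolevulinate synthase, Alas1, the form of most tissues, had 8122, 11311 and 13240 normalized counts in Lin+ and 0, 577 and 86.4 in S3, a log2 difference of 5.61 (SE 0.99, edgeR adjusted p = 0.00026) against the -10.95 of Alas2. Beta spectrins did the same, since Sptbn1 of most cells differed by 6.59 (SE 1.13) and the red cell chain Sptb by -6.40 (SE 0.36). Of the ankyrins, Ank3 had 4011, 1471 and 2876 in Lin+ and 94.5, 49.0 and 55.2 in S3 (5.40, SE 0.79), and Ank1 had 382, 817 and 622 in Lin+ and 212861, 289415 and 314844 in S3 (-8.81, SE 0.48).

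Some metabolic genes were among these sets. The muscle-type pyruvate kinase gene Pkm, used by most proliferating cells, had 18362, 11571 and 8521 in Lin+ and 327, 238 and 243 in S3 (log2 difference 5.57, SE 0.83, edgeR adjusted p = 5.3e-05), opposite to Pklr at -6.69. Among hexokinases Hk2 differed by 4.89 (SE 1.30) and Hk3 was at least 244-fold higher in Lin+, whereas Hk1 differed by -2.15 (SE 0.31). The anion transporter Slc4a7 differed by 4.14 and Slc4a1 by -10.89. Among glucose transporters Slc2a1 differed by -6.76 (SE 0.56), Slc2a6 was at least 69.8-fold higher in Lin+ and Slc2a3 overlapped between populations (0.08, 95% interval -1.15 to 1.31).

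Transcription factors and signalling enzymes gave further pairs. Gata2 differed by 7.42 (SE 1.26, edgeR adjusted p = 0.00018) and Gata1 by -2.71 (SE 0.41, edgeR adjusted p = 6.6e-05), with Gata1 also at 3059, 2233 and 1941 normalized counts in Lin+. Sox4 had 1205, 1800 and 5314 in Lin+ and 0, 1.44 and 0 in S3 (ratio of means 5770, 95% counting interval 1036 to 227910), opposite to Sox6. Of the KLF genes Klf4 was on the Lin+ side and Klf1 and Klf3 (-4.74, SE 0.80) on the S3 side, and Klf2 (6.13, edgeR adjusted p = 0.042) lost its call when any library but S3 replicate 2 was left out (edgeR adjusted p 0.065 to 0.11). The call of Klf2 was also lost with the replicate block (edgeR adjusted p = 0.051) and with a fold of 2 required (0.059). Pik3cd, the leukocyte form of the kinase subunit, had 7106, 8461 and 9372 against 0, 14.4 and 0 (10.50, SE 0.85), whereas the widely made Pik3ca had 2715, 2563 and 4049 against 7707, 6345 and 9701 (-1.35, SE 0.39), a call lost with library totals (edgeR adjusted p = 0.27), with the filter of 10 counts (0.053) and with a fold of 2 required (0.16).

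In other sets a member overlapped between populations or was not called. Rac2, the blood cell Rac, differed by 2.98 (SE 0.45, edgeR adjusted p = 5.8e-05), while Rac1 had 6730, 5879 and 5564 in Lin+ and 4493, 5719 and 9416 in S3 (-0.11, 95% interval -0.70 to 0.48, edgeR adjusted p = 0.78, but 0.04 on the log2 scale with relative log expression factors and 0.72 with library totals). Tmod1, the erythroid tropomodulin, differed by -6.33 and Tmod3 by 0.12 (95% interval -0.44 to 0.68, but 0.91 with library totals, edgeR adjusted p = 0.022), and Slc25a37 differed by -7.08 and Slc25a28, the other mitoferrin, by 0.07 (95% interval -0.75 to 0.89). For Add2 and Add3, the adducins, the differences were -7.63 and 0.59, and for Tspo2 and Tspo they were -8.35 and -0.91, with neither Add3 nor Tspo called. Add3 was called higher in Lin+ under 6 alternatives (adjusted p 0.00044 to 0.042, from edgeR and DESeq2), among them both other scalings and the replicate block (0.034).

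**Figure D4:**
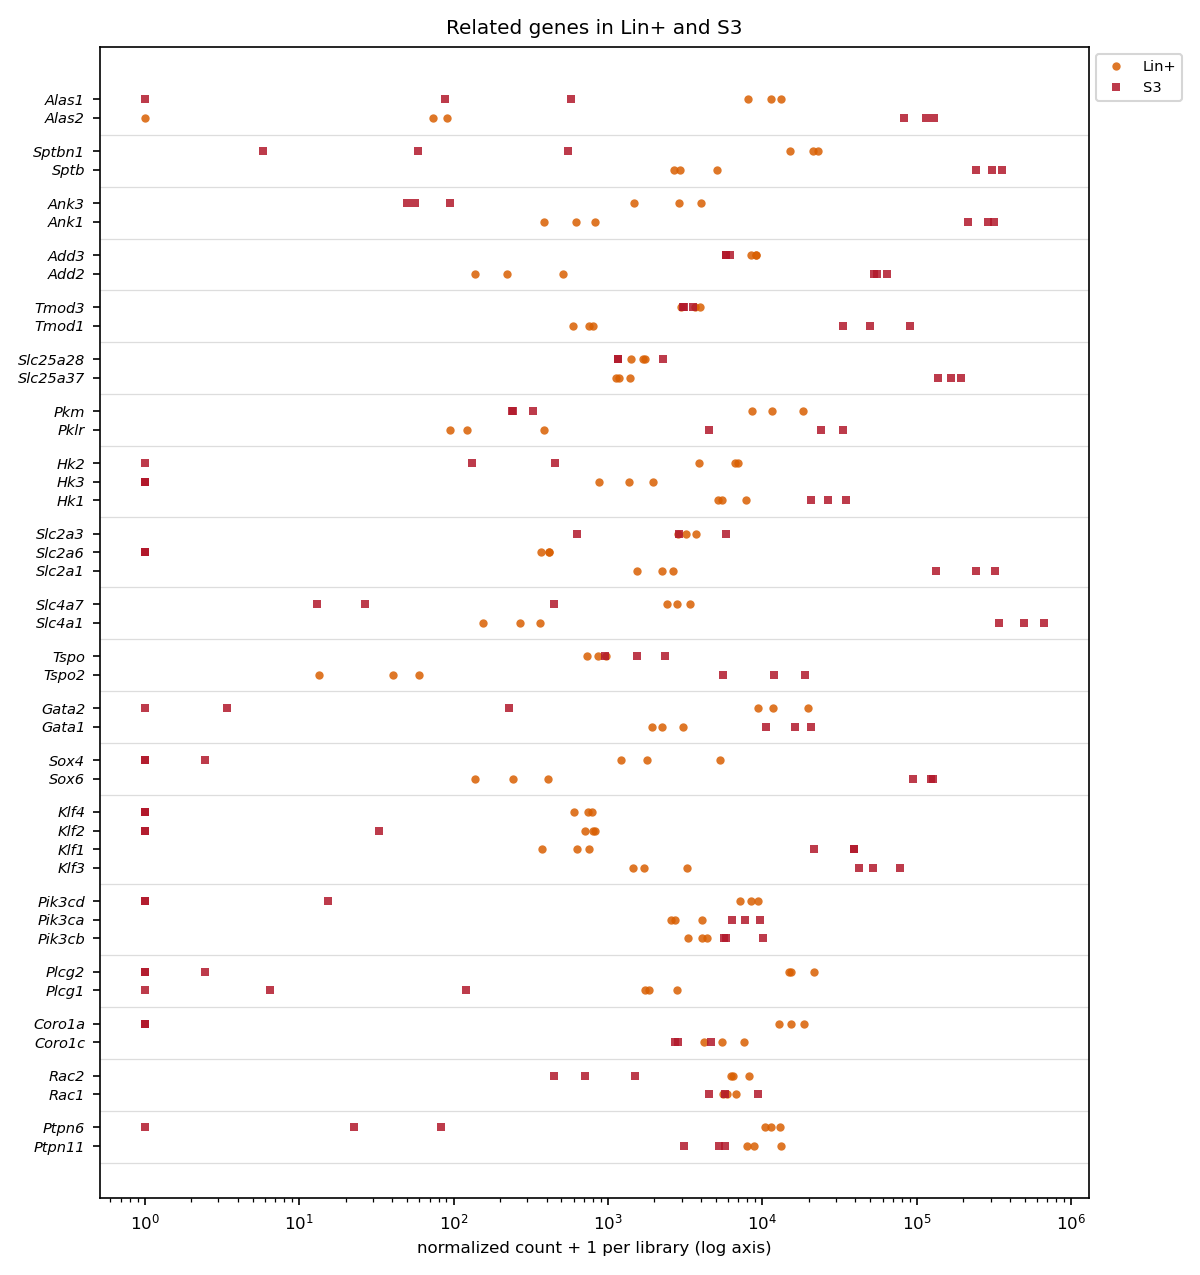
Normalized count plus 1 per library (x axis, log) in Lin+ (circles) and S3 (squares) for sets of related genes, separated by grey lines. In the sets of Alas1 and Alas2, the beta spectrins and the ankyrins the populations swap sides, while Tmod3, Slc25a28 and Rac1 overlap.

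S0-Low was set beside both populations to place these levels, and since Lin+ against S3, Lin+ against S0-Low and S3 against S0-Low share libraries, only each comparison's own values are given. Few genes were called between Lin+ and S0-Low, 88 higher in Lin+ (0.496% of 17755) and 39 lower (0.22%), against 2387 higher (13.4%) and 4328 lower (24.4%) in S3 than in S0-Low. Secondary granule genes were among the few, 9 of 12 being higher in Lin+ than in S0-Low (median log2 difference 11.17, beside 0.02 over all genes). S100a8 had 1.65, 0 and 0 normalized counts in S0-Low, Camp had 0 in all 3 S0-Low libraries, where Lin+ was at least 426-fold higher, and Ngp had 0, 0 and 26.6. Eosinophil genes were higher for 4 of 5. Primary granule genes, by contrast in count alone, were called for 0 of 8 (median 2.63), and all 8 were lower in S3 than in S0-Low. Mpo had 23663, 13800 and 10429 normalized counts in S0-Low, below every Lin+ library (log2 difference 2.55, edgeR adjusted p = 0.27) and above every S3 library (S3 against S0-Low -9.94, edgeR adjusted p = 1.9e-05). The difference between the granule lists was not tested.

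Many leukocyte genes were also made in S0-Low. Of the 25 signalling genes 21 were called lower in S3 than in S0-Low, beside 24.4% of all tested genes. Between Lin+ and S0-Low 0 of them were called, near the shares over all tested genes (0.496% higher and 0.22% lower). Their median log2 difference there was 1.05 beside 0.02 over all genes. Ptprc had 4196, 2909 and 5416 in S0-Low, Cebpa 2119, 1702 and 1684, and Fli1 10211, 6126 and 9486. Cebpe, with 2.48, 25.5 and 23.9 in S0-Low, was higher in Lin+ than there (log2 difference 6.88, edgeR adjusted p = 0.028). Cebpb, which overlapped between Lin+ and S3, was lower in S0-Low, at 1866, 2677 and 1156, than in Lin+ (2.36, edgeR adjusted p = 0.03) and S3 (2.30, edgeR adjusted p = 0.0016). Ctsb was likewise lowest in S0-Low, at 1366, 1312 and 1461, although there the call against Lin+ was not reached (1.68, edgeR adjusted p = 0.11).

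Some erythroid genes were called lower in Lin+ than in S0-Low, where the share over all tested genes was 0.22%. Lin+ was lower than S0-Low for 6 of 18 membrane genes, 3 of 15 late enzyme genes, 2 of 12 haem genes, 2 of 12 iron genes and 1 of 11 erythroid factors. Ank1, which had 7563, 7224 and 7294 in S0-Low, differed by -3.60 in Lin+ (edgeR adjusted p = 9.3e-05), and Klf1, with 2595, 3617 and 6912, by -2.90 (edgeR adjusted p = 0.011). Xpo7 (4273, 3509 and 3034 in S0-Low) and Slc4a1 (235, 686 and 489) did not differ significantly between Lin+ and S0-Low (log2 difference -0.10 and -0.84, edgeR adjusted p = 1 and 0.83). S0-Low replicate 3 was shallow, at 9452476 counts, and the Lin+ against S0-Low counts were unstable: with DESeq2 520 genes were higher and 145 lower, and leaving out any library gave 29 to 46 higher.

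**Figure D5:**
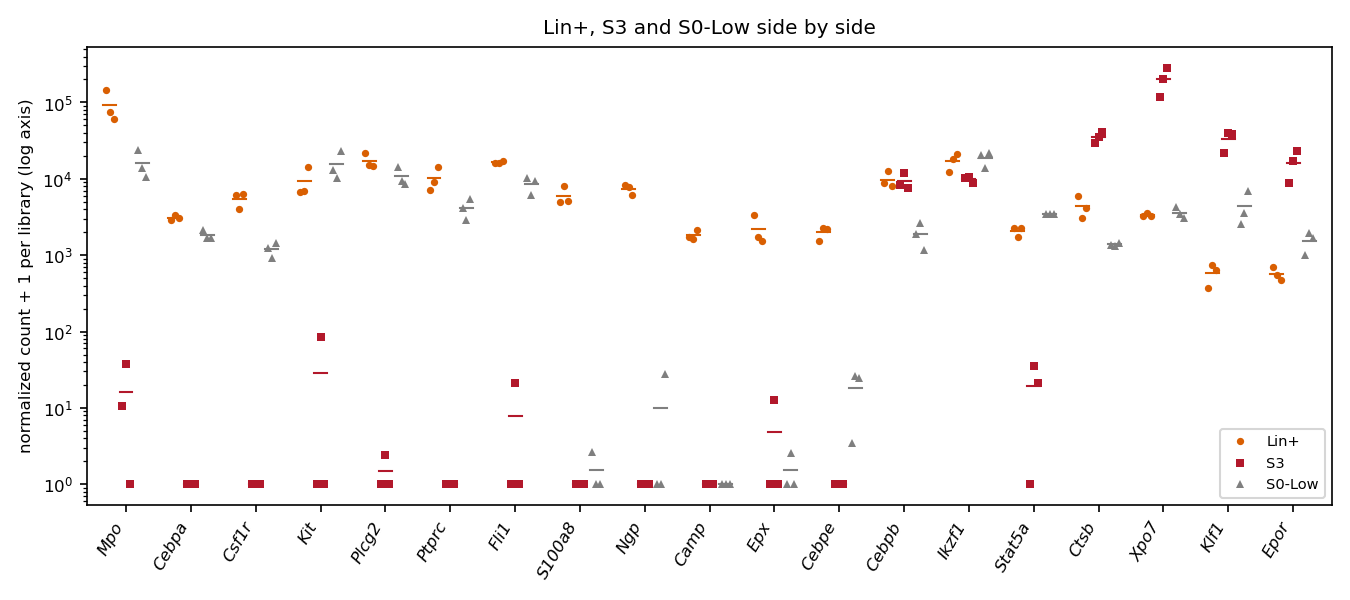
Normalized count plus 1 per library (y axis, log) in Lin+ (circles), S3 (squares) and S0-Low (triangles), with bars for group means. S0-Low lies far nearer to Lin+ than to S3 for Mpo, Cebpa, Csf1r and Kit, near 0 for S100a8, Ngp, Camp and Epx, and below both for Cebpb and Ctsb.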

How the data were processed

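Kallisto 0.43.0 and GRCm38 are named in the submitters' processing notes. The authors deposited 1 table of estimated counts per gene (expected counts, stored as whole numbers) for 18 libraries, made with a stranded total RNA kit and 14 PCR cycles. The table has no molecular identifiers, so intervals and floors cover counting error only. The transcript set was not given in the sources used here. Of 54232 gene identifiers 32651 were matched to symbols, and these held 98.7% of counts. Totals per library were 9452476 to 40567976. The deposited estimated counts were tested with edgeR 4.0.16 in R 4.3.3 (glmQLFit and glmQLFTest, TMM factors, filterByExpr), fitting all 18 libraries by population, with Benjamini-Hochberg adjusted p under 0.05. The procedure was tested on simulated data, where most of the changes put in were not called, also at 16-fold. A gene not called here is therefore not shown to be unchanged. DESeq2 1.42.0, other scalings, filters, a fold threshold of 2, the replicate number as a block and leaving out each library were alternatives. Sources did not say that a replicate number marks a shared animal or day, so no pairing was used in the main fit. After each gene's group mean was subtracted from its log2 counts, same-numbered Lin+ and S3 libraries correlated at 0.0634 to 0.0789.

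Named genes were S100a9 and Alas2, the sort antigens, up to 4 called members of each of 28 lists with the largest log2 difference and a mean of at least 100 normalized counts, and the 12 genes per direction furthest apart by ratio of means. Other genes were chosen after their values were seen, including members named as not called or on the other side of their list, Prtn3, Alb, and the related sets. Members and lists were chosen with earlier results of these data known. Of 340 listed genes 336 had an identifier (not Siglecf, Hbb-bs, Hbb-bt and Ahsp), and 9 were at 0 in all 18 libraries. Gene positions and promoter sequences came from RefSeq tables for GRCm38.p6. A counting interval is 95% Poisson. Some genes that the rule names are not reported here.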

Additional observations from a re-analysis of the deposited data

How the results depend on the processing

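Of 195 named genes tested between Lin+ and S3, no called gene changed sign under any alternative that tested it, and 182 to 195 stayed on their side of the threshold under each alternative that tested them all. Fbxl5 was not among these 195. Library totals shifted the median of all genes from 0.69 to 1.47, and with that shift Rac1 (-0.11 to 0.72, edgeR adjusted p = 0.023), Mcm3, Mcm6 and Mcl1, none of them called with TMM factors, changed sign, as Rac1 and Mcm3 did with relative log expression factors. Other genes near 0 that were not called, such as Cebpb, Slc2a3 and Slc25a28, changed sign when some library was left out. The count of genes higher in Lin+ than in S3 (5005) became 1724 when each gene had to reach 10 counts throughout, and the count of genes higher in S3 than in Lin+ (2496) became 1485 when a fold of 2 was required and 1338 with library totals. Leaving out each library gave 3813 to 4924 and 1973 to 2482. The count of genes higher in Lin+ than in S0-Low (88) became 311 with no filter, 29 with at least 10 counts, 520 with only the 6 libraries compared, 520 with DESeq2 and 29 to 46 with each library left out in turn. The count of genes lower in Lin+ than in S0-Low (39) became 82 with no filter, 145 with DESeq2 and 13 to 32 with each library left out. The count of genes higher in S3 than in S0-Low (2387) became 1226 with library totals and 1404 with only the 6 libraries, and that of genes lower in S3 than in S0-Low (4328) became 6966, 2430 and, with at least 10 counts, 1655. With the replicate block the counts were 5693 and 2845 for Lin+ against S3 and 227 and 115 for Lin+ against S0-Low. Numbers were not shown to pair libraries. After each gene's group mean was subtracted, every Lin+ and S3 library did correlate best with its own number, a hint from the data and not the design. Fewer genes were tested under the filter of 10, and the cause of the smaller counts there was not tested. At 17978747 counts, S3 replicate 1 sets the weakest floor on genes at 0 in S3.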

Other observations

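Genes that regulate cell survival, the nuclear lamina and peroxide defence were looked at after their values were seen. All but Bcl2l1, Prdx2 and Cat belong to no list above. Prdx2 and Cat are members of the list of late erythroid enzymes and remodelling and were counted there. Bcl2 had 1578, 1662 and 1127 normalized counts in Lin+ and 50.9, 0 and 0 in S3 (log2 difference 6.52, SE 1.85, edgeR adjusted p = 0.0096). Bcl2l1, the gene of BCL-XL and a member of the erythropoietin signalling list, had 4990, 3452 and 3406 in Lin+ and 38821, 62071 and 73452 in S3 (-3.88, SE 0.41, edgeR adjusted p = 1.8e-06). Mcl1, another survival gene of the family, was made in both, at 9639, 11789 and 13131 against 18163, 20151 and 13356 (-0.58, 95% interval -1.13 to -0.03, edgeR adjusted p = 0.082, but 0.21 on the log2 scale with library totals), and passed with the replicate block (edgeR adjusted p = 0.03).

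Among lamins, Lmna was higher in S3, at 12471, 17070 and 20509 against 1623, 1052 and 911 in Lin+ (log2 difference -3.80, SE 0.38, edgeR adjusted p = 1.2e-06), and Lmnb2 was higher in Lin+, at 2422, 1591 and 1404 against 138, 630 and 704 (1.88, SE 0.63, edgeR adjusted p = 0.023). The call of Lmnb2 was lost without Lin+ replicate 1 (edgeR adjusted p = 0.074), without S3 replicate 1 (0.076) and with a fold of 2 required (0.083). Lmnb1 differed by -1.25 (edgeR adjusted p = 0.017), a call lost under 7 alternatives (edgeR adjusted p 0.065 to 0.29), among them library totals and leaving out Lin+ replicate 2 or 3 or S3 replicate 3. Of the enzymes that remove peroxide, Prdx2 had 1185, 1472 and 1193 in Lin+ and 41440, 57994 and 57181 in S3 (-5.35, SE 0.44, edgeR adjusted p = 1.8e-07), and catalase (Cat) differed by -3.70 (SE 0.26, edgeR adjusted p = 3.4e-08). Prdx1 overlapped, at 2752, 2168 and 1457 against 1705, 1318 and 438 (0.88, 95% interval -0.17 to 1.93, edgeR adjusted p = 0.16), and passed with library totals (edgeR adjusted p = 0.019), the filter of 10 counts (0.048) and the replicate block (0.022). Myb, a progenitor transcription factor, had 15703, 16724 and 25018 in Lin+ and 838, 562 and 901 in S3 (4.64, SE 0.51, edgeR adjusted p = 2.8e-06), and it had 22212, 23708 and 36160 in S0-Low.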
